A study of Rattus norvegicus with 54 samples.

Results

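The genes described here encode the subunits of the mitochondrial respiratory chain and of ATP synthase, with the assembly factors that share their name stems. They were taken as every probe set with 1 annotated symbol beginning Nduf, Sdha, Sdhb, Sdhc, Sdhd, Uqcr, Cox4i, Cox5, Cox6, Cox7, Cox8 or Atp5, or equal to Cyc1 or Cycs, which gave 95 of 15866 probe sets, for 89 of the 10411 genes that had a probe set of their own. Complex I had 42 probe sets, of which 5 were Ndufaf assembly factors. Complex II had 10, of which 5 were Sdhaf assembly factors, complex III had 8, complex IV had 16 with the pseudogene Cox6c-ps1, and complex V had 19, of which 3 measured its inhibitor Atp5if1. The 81 subunit probe sets stood for 78 genes. All of them are encoded in the nucleus, and no probe set measured a mitochondrially encoded subunit or, with 1 symbol alone, cytochrome c.

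The study measured RNA on 54 Affymetrix Rat Expression Set 230A arrays from epididymal adipose tissue, liver and gastrocnemius muscle of male Zucker rats. In each tissue there were 6 groups of 3 arrays. Obese rats carried 2 fa copies (fa/fa) and received pioglitazone, rosiglitazone, troglitazone or AG035029, all ligands of the nuclear receptor PPARγ, or were left untreated on normal chow. Lean rats were fa/+, so that they carried 1 fa copy, and were untreated on normal chow. The fa allele disrupts the leptin receptor. Pioglitazone, rosiglitazone and troglitazone are thiazolidinediones, and AG035029 is known here by its code only. Doses, durations and ages are not given in the sources used here. Each array held RNA pooled from 2 rats, so 3 arrays stood for 6 rats, and the error terms below measure the spread between such pools.

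Complex I (NADH dehydrogenase) and complex II (succinate dehydrogenase) pass electrons from NADH and succinate to ubiquinone. Complex III passes them to cytochrome c, complex IV (cytochrome c oxidase) passes them to oxygen, and the proton gradient that complexes I, III and IV build drives ATP synthesis by complex V. Some complex IV subunits exist as tissue isoforms, with Cox6a2, Cox7a1 and Cox8b known from heart and skeletal muscle and Cox6a1 and Cox8a from most other tissues. White adipocytes hold few mitochondria beside muscle fibres and hepatocytes, and activation of PPARγ is known to raise mitochondrial genes in them.

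Values are MAS5 signals, a linear brightness scaled so that the mean of each array, after trimming 2% at each end, was 500. A signal therefore gives a transcript relative to the other transcripts of that array, and it compares the same probe set between arrays, not different probe sets. Differences below are on the scale log2(signal + 20), given ± SE from limma. A probe set is called at an adjusted p under 0.05 (Benjamini-Hochberg over 9519 tested probe sets). Shares of all tested probe sets that passed are given at this adjusted threshold. Counts at an unadjusted p under 0.05 are given without such a share, so they do not set members apart from other probe sets. In bulk tissue, fewer cells of a type and less RNA per cell cannot be told apart. The tissues matched their labels: Cfd, an adipocyte transcript, lay between 8419 and 16207 in adipose tissue and at most at 474 in liver, Alb, a hepatocyte transcript, lay at 46676 or more in liver, and Ckm, a muscle transcript, at 43421 or more in muscle. Some arrays held transcripts of another tissue. The muscle transcript Acta1 reached 626.1 in AG035029 adipose replicate 1 and 785.3 and 657.9 in lean adipose replicates 2 and 3, against at most 344.3 in the other adipose arrays, and it reached 13627 in troglitazone liver replicate 3, against at most 316.2 in the other liver arrays. Ckm was high in the same liver array (2994.9) and in lean adipose replicates 2 and 3 (580.4 and 450.4), but not in AG035029 adipose replicate 1 (175.8), where the other adipose arrays reached 259.2. Results in adipose tissue and liver were therefore also computed without the 4 arrays high in Acta1, and without the 3 high in both transcripts.

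Promoter windows of 300 bases, from 250 before to 50 after the annotated start, were matched in RefSeq (build GRCr8) for 80 of the 89 genes, 70 of them subunit genes. Since most of these genes moved together in adipose tissue (below), the windows were searched on both strands for binding motifs of factors known to act on respiratory genes. The 8-base motif AAGATGGC of YY1 lay in 16 of the 70 windows of subunit genes (22.9%), against 3.44% of all 27457 windows and 3.92% of the 18999 windows of protein coding genes. Of these 16, 14 lay from 10 bases before to 50 after the start. The motif CCGGAAGT of GABPA and other ETS factors lay in 8 windows (11.4%, against 4.01% of all and 4.99% of coding windows), and the motif GCGCATGC of NRF1 in 7 (10%, against 2.66% and 3.22%). The motif TNAAGGTCA of the estrogen-related receptors lay in 3 (4.29%, against 1.15% and 0.995%). The direct repeat AGGTCANAGGTCA bound by PPAR with RXR, which shares the letters AGGTCA with the preceding motif, lay in 0 of 70 and in 0.0583% of all windows. This motif of 13 letters lay in only 16 of the 27457 windows, so the 0 cannot tell subunit genes from others. At least 1 of these motifs lay in 29 windows of subunit genes (41.4%), against 10.6% of all and 12.2% of coding windows. The AAGATGGC motif contains ATG and may overlap a translation start, which was not looked up. These are matches of letters in a window, not bound sites. The windows below belong to the gene of each complex with the largest adipose rise among those with a match, with the motif in capitals, and to Cox8b, a muscle isoform whose window held none of the motifs. Ndufa3 (chr1:74515509-74515808, minus strand) has the YY1 motif, Sdhb (chr5:158547684-158547983, plus strand) the NRF1 motif, and Uqcrh (chr5:134790833-134791132, minus strand), Cox5b (chr9:46417587-46417886, plus strand) and Atp5f1a (chr18:73567287-73567586, plus strand) the ETS motif. Cox8b lies at chr1:205408224-205408523 on the minus strand.
Ndufa3: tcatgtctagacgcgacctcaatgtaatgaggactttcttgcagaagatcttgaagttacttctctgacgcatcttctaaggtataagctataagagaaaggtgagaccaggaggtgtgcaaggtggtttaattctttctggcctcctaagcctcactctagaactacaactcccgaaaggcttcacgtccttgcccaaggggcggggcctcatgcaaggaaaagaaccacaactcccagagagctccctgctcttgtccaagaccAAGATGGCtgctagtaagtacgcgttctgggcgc
Sdhb: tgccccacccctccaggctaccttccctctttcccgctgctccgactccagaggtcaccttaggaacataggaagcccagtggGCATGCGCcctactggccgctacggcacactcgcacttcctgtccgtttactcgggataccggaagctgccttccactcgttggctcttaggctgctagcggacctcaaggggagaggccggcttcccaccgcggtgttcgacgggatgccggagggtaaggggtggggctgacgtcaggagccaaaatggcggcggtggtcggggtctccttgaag
Uqcrh: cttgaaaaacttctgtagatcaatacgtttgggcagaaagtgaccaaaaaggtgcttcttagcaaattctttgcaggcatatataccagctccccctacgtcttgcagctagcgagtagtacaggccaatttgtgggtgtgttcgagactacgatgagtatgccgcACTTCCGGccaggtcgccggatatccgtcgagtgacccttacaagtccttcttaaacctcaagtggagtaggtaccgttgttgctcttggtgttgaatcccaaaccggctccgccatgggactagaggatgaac
Cox5b: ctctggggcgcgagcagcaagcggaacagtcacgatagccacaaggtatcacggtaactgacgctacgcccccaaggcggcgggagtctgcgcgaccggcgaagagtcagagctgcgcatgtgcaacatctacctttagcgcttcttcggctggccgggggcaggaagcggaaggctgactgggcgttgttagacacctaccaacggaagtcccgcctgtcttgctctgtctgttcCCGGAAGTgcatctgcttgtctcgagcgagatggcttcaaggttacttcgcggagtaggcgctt
Atp5f1a: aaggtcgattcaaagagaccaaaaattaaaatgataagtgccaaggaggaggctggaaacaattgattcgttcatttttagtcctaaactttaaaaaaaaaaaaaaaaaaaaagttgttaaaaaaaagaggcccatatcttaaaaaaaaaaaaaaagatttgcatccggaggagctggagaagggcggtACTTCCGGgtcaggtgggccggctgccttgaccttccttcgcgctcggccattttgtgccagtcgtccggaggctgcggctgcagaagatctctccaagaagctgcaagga
Cox8b: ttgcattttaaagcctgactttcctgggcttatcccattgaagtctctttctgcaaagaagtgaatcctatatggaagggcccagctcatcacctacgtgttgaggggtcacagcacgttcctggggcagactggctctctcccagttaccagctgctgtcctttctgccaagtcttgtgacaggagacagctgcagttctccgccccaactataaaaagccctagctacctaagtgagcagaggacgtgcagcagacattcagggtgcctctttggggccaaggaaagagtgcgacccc

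In adipose tissue, ligand treatment raised the respiratory genes of all 5 complexes. Of 87 members tested, 69 rose in the mean of the 4 ligand groups relative to untreated obese rats and 0 fell (limma), where 9.01% of all tested probe sets rose and 11.6% fell. The 69 stood for 67 genes. The median difference of the 87 members was 0.50, against -0.05 over all tested probe sets, and 85 of the 87 differences lay above 0. Most members that rose were subunits: 68 of 75 subunit probe sets rose, with a median of 0.54. Of 10 Nduf and Sdh assembly factors 1 rose, with a median of 0.16. Subunits and assembly factors were not compared at equal brightness, and further assembly factors are counted below. The 8 members left out of the test as dim were Ndufa4l2, Cox6a2, Cox6b2, Cox7a1, Cox8b, 2 of the 3 Atp5if1 probe sets and 1 of the 2 Atp5me probe sets.

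The 12 ligand arrays and the 3 untreated obese arrays did not overlap for 45 of the 87 members, which lay above in every ligand array, as 4.91% of all tested probe sets did. For 39 members the 12 ligand arrays lay above the 3 lean arrays as well, as 3.17% of all did. Members are bright on these arrays, and bright probe sets rose more often: of the 524 tested probe sets brighter than the median member 33.4% rose, with a median of 0.17, and 41 of the 43 members among them rose, with a median of 0.54.

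**Figure D1:**
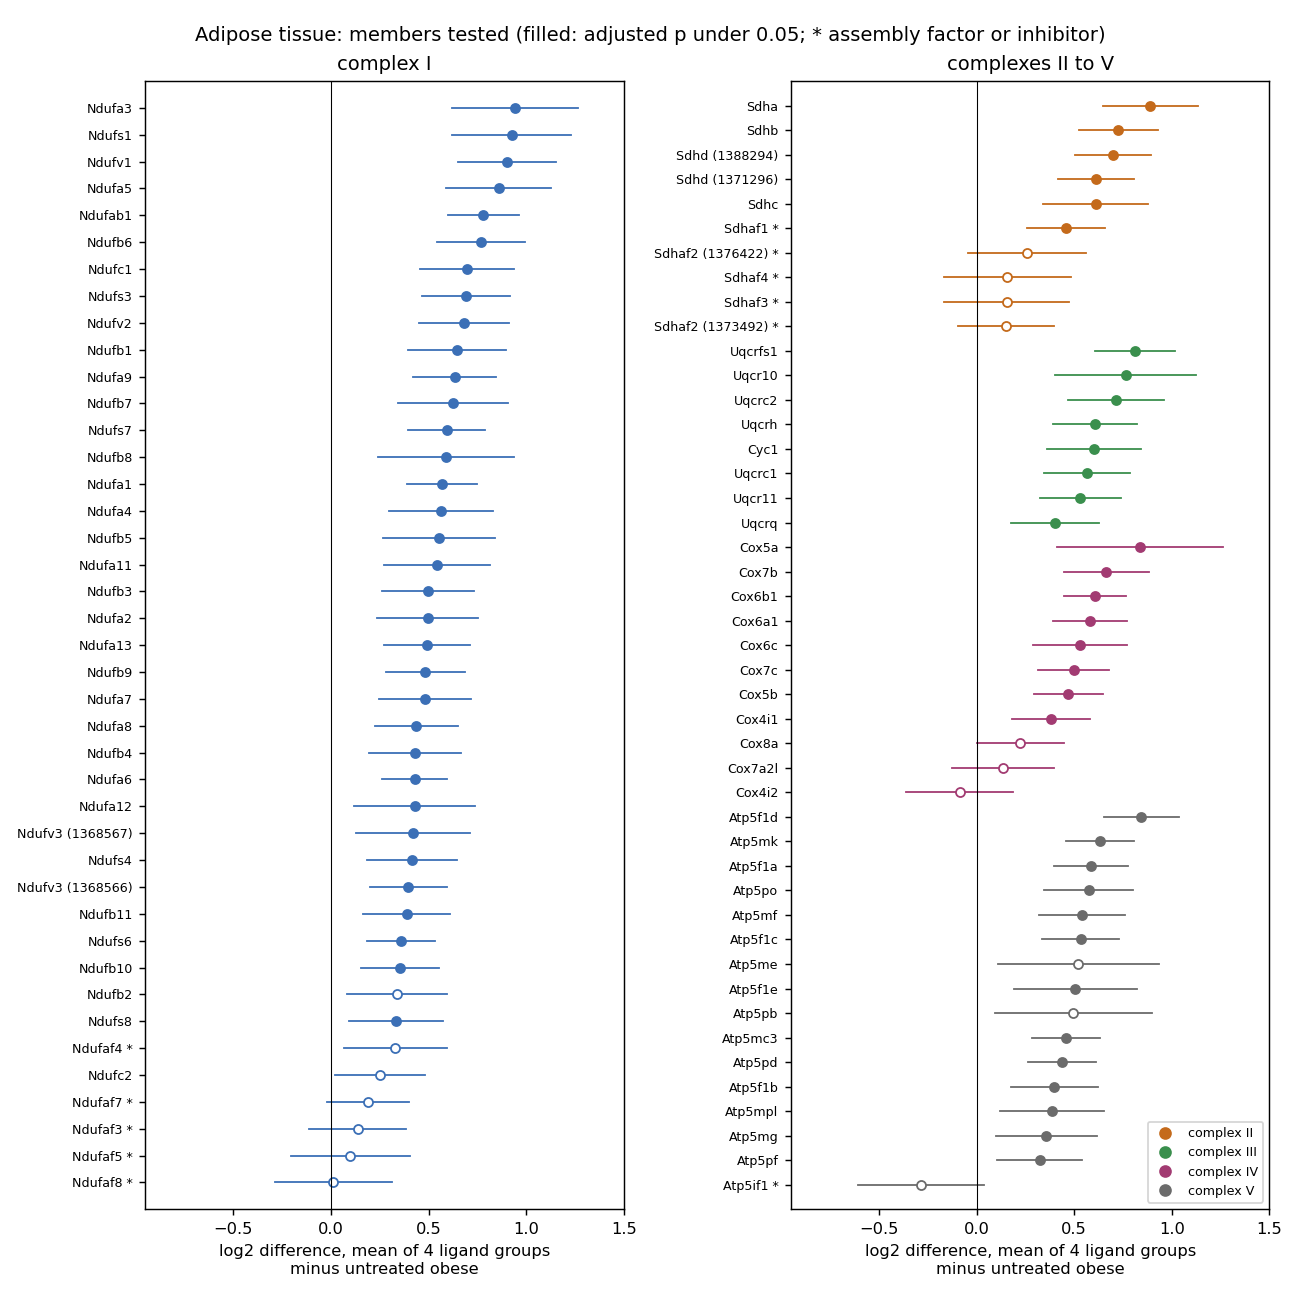
Log2 difference of each tested member in adipose tissue, mean of the 4 ligand groups (12 arrays) minus untreated obese rats (3 arrays), by complex. Points are limma estimates, bars their 95% confidence intervals, filled points have an adjusted p under 0.05, and asterisks mark assembly factors and the inhibitor (the pseudogene Cox6c-ps1 is not drawn). Filled points run up to 0.94 for Ndufa3, and the assembly factors and Cox4i2 lie nearer 0.

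Complex I rose in 34 of 36 subunit probe sets, with a median of 0.52 and a range of 0.25 to 0.94. Ndufab1 (Entrez gene 293453), the acyl carrier protein of mitochondria, had signals of 3311, 4160.1 and 5031 (lowest, median and highest) in the 12 ligand arrays, against 2336, 2439.9 and 2620.3 in untreated obese and 2388, 2280.4 and 2272 in lean rats. Every ligand array lay above every untreated array, and the difference from untreated obese rats was 0.78 ± 0.09, adjusted p = 5.93e-06. Ndufv1 (Entrez gene 293655), the subunit that takes electrons from NADH, had 3848, 4882 and 5843 in ligand arrays, against 2720.4, 2983 and 2008 in untreated obese and 3162, 2497 and 2915 in lean rats. Its groups did not overlap either (0.90 ± 0.12, adjusted p = 3.48e-05). Ndufa3 (Entrez gene 691001), an accessory subunit whose promoter window is given above, showed the largest rise, 0.94 ± 0.15, adjusted p = 2.67e-04, a 1.92-fold difference. It had 1538, 3074 and 3761 in ligand arrays, against 1451, 1269 and 1652 in untreated obese and 952, 1227 and 1059.5 in lean rats, so that the lowest ligand array lay within the untreated obese range. Ndufs1, which carries iron-sulfur clusters, rose by 0.93 ± 0.15, adjusted p = 2.05e-04, and Ndufb6, an accessory subunit of the membrane arm, by 0.77 ± 0.11, adjusted p = 6.75e-05. The subunits that did not pass were Ndufb2 (0.34 ± 0.12, adjusted p = 0.0568) and Ndufc2 (0.25 ± 0.11, adjusted p = 0.114). None of the 5 Ndufaf assembly factors passed, with Ndufaf4 nearest at 0.33 ± 0.12, adjusted p = 0.0687.

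All 5 subunit probe sets of complex II rose, with a median of 0.70. Sdha (Entrez gene 157074), the flavoprotein that oxidises succinate, had 3876, 5163 and 7171 in ligand arrays, against 3139, 2802 and 2657 in untreated obese and 2804, 3276 and 2930.3 in lean rats. All ligand arrays lay above all untreated arrays, by 0.89 ± 0.12, adjusted p = 2.93e-05, a 1.85-fold difference. Sdhb, the iron-sulfur subunit, had 4024, 5063 and 6453 in ligand arrays, against 2971, 2763 and 3365 in untreated obese and 2514, 2922 and 2744 in lean rats, again without overlap (0.73 ± 0.10, adjusted p = 3.92e-05). The 2 probe sets of Sdhd, a membrane anchor, rose by 0.70 and 0.61. Among the Sdhaf assembly factors Sdhaf1, which helps to insert iron-sulfur clusters into Sdhb, was the 1 that passed, at 0.46 ± 0.09, adjusted p = 0.00196. It had 2587, 2762 and 3175 in ligand arrays, against 1888, 2114 and 2081 in untreated obese and 2318, 1719.6 and 1805 in lean rats.

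All 8 subunits of complex III rose, by 0.40 to 0.81 with a median of 0.60. Uqcrfs1 (Entrez gene 291103), the Rieske iron-sulfur protein, had 6697, 8258 and 10023 in ligand arrays, against 5008, 4978 and 4216 in untreated obese and 5539, 5045 and 4077 in lean rats. The groups did not overlap, and the difference was 0.81 ± 0.10, adjusted p = 1.49e-05, or 1.76-fold. Uqcrc2, a core protein, rose by 0.72 ± 0.12, adjusted p = 2.74e-04. Uqcrh, the hinge protein, had 4527, 5804 and 6439 in ligand arrays, against 3822, 3814 and 3664 in untreated obese and 2751, 4002 and 3616 in lean rats (0.61 ± 0.10, adjusted p = 3.96e-04).

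Complex IV rose in 8 of its 11 tested subunits, with a median of 0.50. Cox6b1 (Entrez gene 688869) had 5566, 6989 and 7727 in ligand arrays, against 4698, 4255 and 4548 in untreated obese and 4483, 4237 and 4105 in lean rats. All ligand arrays lay above all untreated arrays (0.61 ± 0.08, adjusted p = 1.90e-05). Cox6a1 rose by 0.58 ± 0.09, adjusted p = 1.63e-04, Cox7b by 0.67 ± 0.10, adjusted p = 1.94e-04 and Cox4i1 by 0.38 ± 0.09, adjusted p = 0.0075. Cox5a showed the largest difference of the complex, 0.84 ± 0.20, adjusted p = 0.00636, with 374, 561 and 899 in ligand arrays, against 297, 358 and 285 in untreated obese and 301, 359.6 and 402 in lean rats. The subunits that did not pass were Cox8a (0.22 ± 0.11, adjusted p = 0.141), Cox7a2l (0.13 ± 0.12, adjusted p = 0.472) and Cox4i2 (-0.09 ± 0.13, adjusted p = 0.681). Cox7a2l takes part in joining complexes III and IV, and Cox4i2 is an isoform of Cox4 known from lung. Ndufa4, named for complex I and now known as a subunit of complex IV, rose by 0.56 ± 0.13, adjusted p = 0.00405. By its symbol Ndufa4 is included in the complex I counts and medians of this text, not in those of complex IV. Its dim relative Ndufa4l2, below the filter, had 86.7, 122 and 159 in ligand arrays, against 159.9, 198 and 152 in untreated obese and 209, 220.5 and 212 in lean rats. Fitted without the filter, Ndufa4l2 differed by -0.43 from untreated obese rats (adjusted p = 0.103) and by -0.73 from lean rats (adjusted p = 0.00352).

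Complex V rose in 13 of 15 subunit probe sets, with a median of 0.51. Atp5f1d (Entrez gene 245965), the delta subunit of the central stalk, had 3102, 3987 and 4603 in ligand arrays, against 2230.2, 2249 and 2003 in untreated obese and 2219, 2739 and 2403 in lean rats. The ligand arrays lay apart from all others, with a difference of 0.84 ± 0.09, adjusted p = 4.78e-06, or 1.80-fold, which was the smallest adjusted p of any member in this comparison. Atp5f1a, the alpha subunit of the catalytic head, had 6565, 8332 and 9617 in ligand arrays, against 5459, 5263 and 5408 in untreated obese and 5933, 5655 and 5118 in lean rats (0.59 ± 0.09, adjusted p = 1.53e-04). Atp5mk, a small membrane subunit, rose by 0.63 ± 0.08, adjusted p = 3.42e-05. The subunit probe sets that missed the threshold had large errors, Atp5me at 0.52 ± 0.20, adjusted p = 0.0692 and Atp5pb at 0.49 ± 0.19, adjusted p = 0.0755. Atp5if1, the protein that blocks ATP hydrolysis by complex V, lay the other way. Its tested probe set had 438, 678 and 992 in ligand arrays, against 934, 723 and 803 in untreated obese and 607, 572 and 679 in lean rats, and the groups overlapped (-0.29 ± 0.15, adjusted p = 0.2). It passed as lower without the 4 arrays high in Acta1 (-0.36, adjusted p = 0.0481), but not when AG035029 replicate 1 was kept (-0.29, adjusted p = 0.229).

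**Figure D2:**
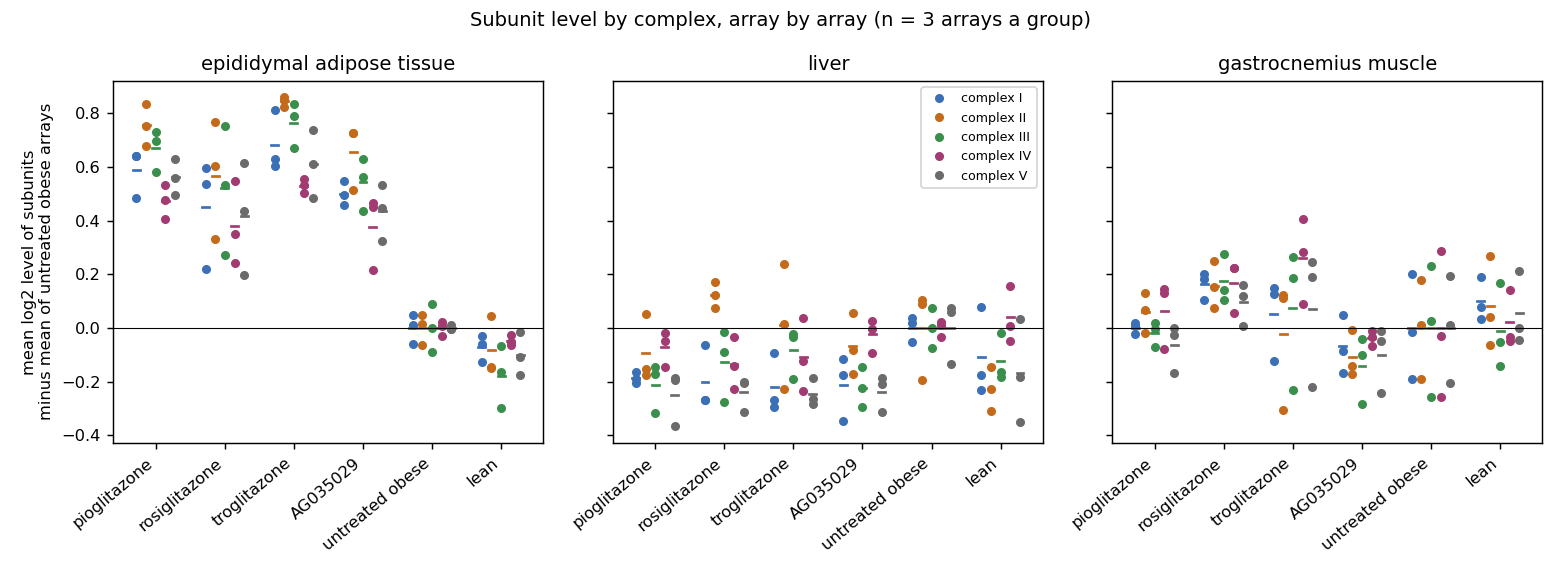
Mean log2 level of the tested subunits of each complex on each array, minus the mean of the untreated obese arrays, in 3 tissues. The 6 groups of 3 arrays stand along the axis, each point is 1 array and 1 complex, and short lines are group means. In adipose tissue every ligand array lies above the untreated arrays in all 5 complexes and the rosiglitazone arrays spread most, in liver the ligand arrays lie below the untreated obese arrays in complexes I and V, and in muscle the groups overlap.

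Averaged over the 75 subunit probe sets, the adipose level relative to untreated obese rats was 0.67 ± 0.09 for troglitazone, 0.59 ± 0.07 for pioglitazone, 0.48 ± 0.08 for AG035029, 0.45 ± 0.20 for rosiglitazone and -0.09 ± 0.06 for lean rats (SD, n = 3 arrays each). The 12 ligand arrays lay between 0.23 and 0.76 and the 3 untreated obese arrays between -0.04 and 0.03. The lowest of the 12 was rosiglitazone replicate 2, which was also the lowest ligand array for most of the genes named above. The median signal of that array was 245.6, against 211.0 and 213.7 on rosiglitazone replicates 1 and 3. Its Acta1 signal was 344.3, against 11.7 and 9.4. The cause of its low subunit level was not tested. Members that rose numbered 65 under troglitazone, 59 under pioglitazone, 51 under AG035029 and 36 under rosiglitazone, of 87 in each, beside 7.81%, 6.98%, 6.71% and 2.87% of all tested probe sets. In that order the median differences over members were 0.60, 0.55, 0.43 and 0.44. The 4 comparisons share the untreated obese arrays. The rosiglitazone count moved most between fits: it was 53 without rosiglitazone replicate 2, 15 without replicate 1, 10 without replicate 3, 23, 15 and 20 without untreated obese replicates 1, 2 and 3, and 6 when the 6 arrays were fitted alone. The AG035029 count was 28 without its replicate 2 and 33 without untreated obese replicate 2.

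**Figure D3:**
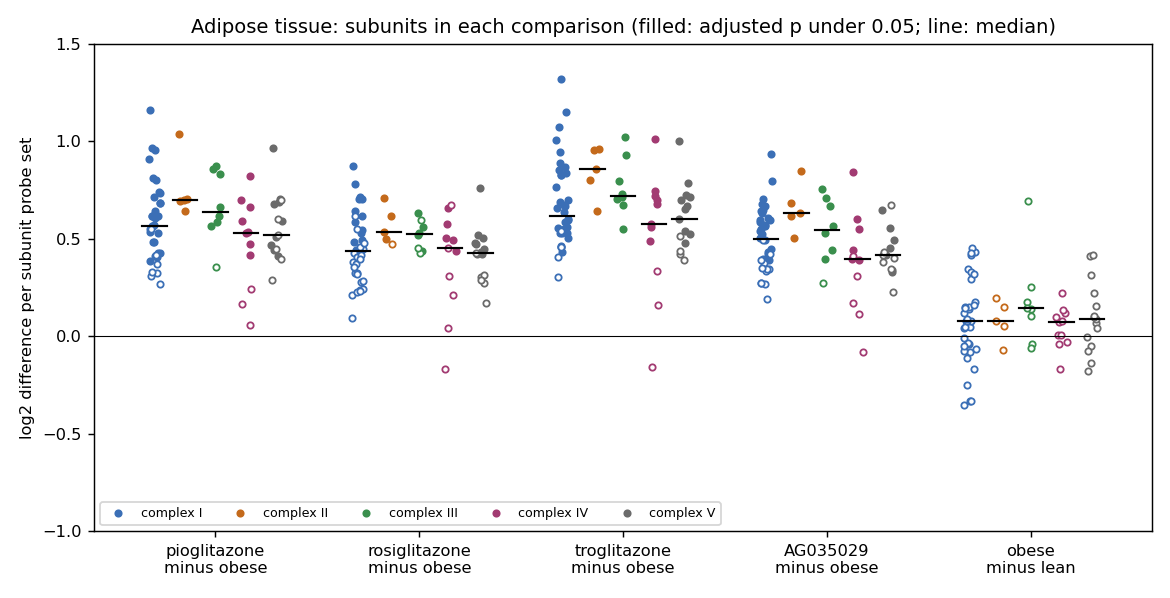
Log2 difference of each of the 75 subunit probe sets in adipose tissue, for each ligand minus untreated obese rats and for untreated obese minus lean rats. Each point is 1 probe set, coloured by complex, filled where the adjusted p is under 0.05, and lines mark medians. The ligand clouds centre above 0 and overlap each other, and no point is filled for untreated obese minus lean rats.

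The ligands could not be ranked. In the F-test among the 4 ligands 0 of 87 members passed (smallest adjusted p = 0.36, 9 at an unadjusted p under 0.05, limma), where 0.0315% of all tested probe sets did, and 0 members passed in any of the 6 differences between ligands, where 0.042% of all did in at least 1. The median 95% interval of such a difference reached 0.29 to each side. At an unadjusted p under 0.05 (limma), 21 members differed between rosiglitazone and troglitazone and 18 between troglitazone and AG035029. The share of all tested probe sets at that level is not given here, so these counts do not rank the ligands. Medians over members were -0.20 for rosiglitazone minus troglitazone and 0.18 for troglitazone minus AG035029. Troglitazone minus AG035029 was 0.74 for Ndufa3 (95% interval 0.33 to 1.14, adjusted p = 0.479) and 0.12 for Sdha (-0.19 to 0.42, adjusted p = 0.859). Differences of the size of the ligand effect itself lie within some of these intervals, so they do not show that the ligands act alike. The doses behind them are not given.

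Obesity itself moved none of these genes past the threshold in adipose tissue. Between untreated obese and lean rats 0 of 87 members passed (limma; 11 at an unadjusted p under 0.05), where 6.02% of all tested probe sets did, and the median was 0.08, against -0.02 over all. The largest difference was that of Uqcr10, a small complex III subunit, with 4781, 3109.8 and 4943 in untreated obese and 2638, 3335 and 1954 in lean rats (0.69 ± 0.22, adjusted p = 0.0664). The ligand groups therefore stood above lean rats as well. Of 87 members 74 were higher in the mean of the 4 ligand groups than in lean rats and 0 lower, where 14.4% of all tested probe sets were higher, and the median was 0.61, against -0.07 over all. Higher were 69 of 75 subunit probe sets and 4 of 10 assembly factors. Cox6a1 stood 0.81 ± 0.09, adjusted p = 2.76e-06 above lean rats, Cox6b1 0.68 ± 0.08, adjusted p = 2.60e-06, and Cox8a, which did not pass against untreated obese rats, 0.31 ± 0.11, adjusted p = 0.0312. Without the 3 arrays high in Acta1 and Ckm, which leaves 1 lean array, 46 members were higher, and 50 without the 4 high in Acta1.

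Other genes of the pathway were counted from lists, to be read against the 9.01% of all tested probe sets that rose and the 11.6% that fell. Of 26 further assembly factors tested in adipose tissue, 8 rose in the ligand mean relative to untreated obese rats and 0 fell, with a median of 0.21. They included Cox10 (0.56), which makes the haem of complex IV, Lrpprc (0.51), which stabilises mitochondrial messenger RNA, and Foxred1 (0.50), needed for complex I. Of 17 genes that feed electrons to ubiquinone or make it, 8 rose and 1 fell. Etfdh, which passes electrons from fatty acid oxidation to ubiquinone, rose by 1.25 ± 0.12 (adjusted p = 1.53e-06), above every member, with Etfa at 0.66, Etfb at 0.61 and the ubiquinone synthesis gene Coq9 at 0.77. The gene that fell was Nnt (-0.44, adjusted p = 0.0263), which makes NADPH from the proton gradient. Of 6 genes for ATP export and phosphate import 2 rose, the ADP/ATP carriers Slc25a5 (0.68, adjusted p = 8.56e-05) and Slc25a4 (0.26, adjusted p = 0.0139). Of 6 regulators tested 0 passed (limma), with Tfam, which maintains mitochondrial DNA, at 0.21 (adjusted p = 0.283) and Esrra, an estrogen-related receptor, at 0.23 (adjusted p = 0.401). Ppargc1a, a coactivator of respiratory genes, was dim in adipose tissue, with signals of 1.5 to 9.1. Between untreated obese and lean rats, where 6.02% of all passed, 2 genes of these lists did, Coq8a (-0.99, adjusted p = 0.0095) and Coq10a (-0.57, adjusted p = 0.0118), both lower in untreated obese rats and both in the ubiquinone list.

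Markers of other cell types moved with the ligands in adipose tissue. All 10 macrophage markers were tested. Of these, 9 fell in the ligand mean and 8 were higher in untreated obese than in lean rats. Their mean level relative to untreated obese rats lay between -1.42 and -0.21 in the 12 ligand arrays, between -0.03 and 0.02 in the 3 untreated obese arrays and between -1.44 and -1.25 in lean arrays, and none was at 0. Cd68, a macrophage protein, had 988, 1190.0 and 1716 in ligand arrays, against 2233, 2222 and 2417 in untreated obese and 970.2, 887 and 845 in lean rats. Of 6 tested adipocyte markers 3 rose and 1, Lep, fell, with a mean level between -0.01 and 0.39 in ligand arrays, between -0.09 and 0.07 in untreated obese and between -0.04 and 0.06 in lean arrays. Of 5 brown adipocyte markers on the array 1 passed the filter, Cidea, with 6653, 8368 and 10056 in ligand arrays, against 4518, 4215 and 4686 in untreated obese and 2409, 2386 and 2182 in lean rats. Ucp1, the uncoupling protein that defines brown adipocytes, had 50.3, 149.8 and 454 in ligand arrays, against 24.2, 21.6 and 59.2 in untreated obese and 11.9, 96.5 and 69.8 in lean rats. The mean level of the 5 lay between 0.14 and 0.90 in ligand arrays, between -0.08 and 0.05 in untreated obese and between -0.63 and 0.03 in lean arrays. Of 8 hepatocyte markers 3 passed the filter and 1 rose, Alb, with 2559.7, 6668 and 9189.6 in ligand arrays, against 188, 350.1 and 289.6 in untreated obese and 1909, 1316 and 809 in lean rats. Their mean level lay between 0.18 and 0.70 in ligand arrays, between -0.11 and 0.19 in untreated obese and between 0.04 and 0.38 in lean arrays. Within groups, over 18 arrays, the mean subunit level correlated with the macrophage level at r = -0.62 (rho = -0.48, and r = -0.62 without the 2 arrays farthest from the median), with the adipocyte level at r = 0.16 (rho = 0.19, and r = 0.16 without 2) and with the brown adipocyte level at r = 0.29 (rho = 0.25, and r = 0.32 without 2). These describe arrays that share a scale, and no r over groups is given, since ligand and untreated arrays lay apart in subunit level. The part of these cell types in the rise of respiratory genes was not tested.

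In liver no member passed the test for ligand treatment. Of 86 members tested, 0 passed for the ligand mean against untreated obese rats (limma), where 0.494% of all tested probe sets did. At an unadjusted p under 0.05 there were 20 members, a level at which the share of all is not given here. Most differences, 71 of 86, lay below 0, with a median of -0.16, against -0.01 over all. The mean level of the 74 tested subunit probe sets, relative to the untreated obese mean, lay between -0.26 and -0.06 in the 12 ligand arrays, between -0.04 and 0.03 in untreated obese and between -0.23 and 0.05 in lean arrays. Ligand and untreated obese arrays did not overlap in this mean, nor in those of complex I (-0.35 to -0.07 in ligand arrays, against -0.05 to 0.04 in untreated obese arrays) and complex V (-0.37 to -0.19, against -0.14 to 0.08), while lean arrays overlapped both groups. In liver the share of all tested probe sets, or of equally bright ones, that lay apart in this way was not counted. The separation is therefore not shown to be particular to these genes. Ndufa7, an accessory subunit of complex I, came nearest, with 2012, 2583 and 3074 in ligand arrays, against 3691, 2877 and 4136 in untreated obese rats (-0.49 ± 0.14, adjusted p = 0.136). No member passed for pioglitazone, rosiglitazone, troglitazone or AG035029 alone, where 0.021%, 0.063%, 0.662% and 0.2% of all did, or in the F-test among ligands (0.0105%) or the 6 differences between them (0.0315%). At an unadjusted p under 0.05, 12, 20, 15 and 10 members passed for the 4 ligands in that order and 1 in the F-test. Between untreated obese and lean rats 0 passed (6 at an unadjusted p under 0.05), where 0.672% of all did, with a median of 0.10.

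The ligand mean was lower than lean liver for 2 members and higher for 0, where 3.18% of all tested probe sets passed. Ndufa11, an accessory subunit of complex I, had 2481, 3031 and 3325 in ligand arrays, against 4372, 3831 and 3687 in untreated obese and 4071, 5651 and 4485 in lean rats. All 12 ligand arrays lay below all untreated arrays, and the difference from lean rats was -0.65 ± 0.12, adjusted p = 0.00268. Uqcrh had 2965, 3672 and 4230.3 in ligand arrays, against 3928, 4737 and 4509 in untreated obese and 4525, 5259.6 and 4491 in lean rats, with overlap between ligand and untreated obese arrays (-0.41 ± 0.11, adjusted p = 0.0477). Without lean replicate 2, 0 members passed. Without troglitazone replicate 3, the array with muscle transcripts, Ndufa11 alone passed, at -0.64 (adjusted p = 0.00469). That array also held the muscle isoforms, at 392.7 for Cox8b and 372.6 for Cox6a2.

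In muscle 90 members were tested and 0 passed between untreated obese and lean rats (limma; 3 at an unadjusted p under 0.05), where 0.021% of all tested probe sets did, with a median of -0.08. For the ligand mean against untreated obese rats 0 passed (5 at an unadjusted p under 0.05), where 0.242% of all did, with a median of 0.03. Against lean rats 0 passed (6 at an unadjusted p under 0.05), where 1.11% of all did. No member passed for pioglitazone, rosiglitazone or AG035029 alone (limma; 3, 5 and 3 at an unadjusted p under 0.05), where 0.231%, 0.0315% and 0.116% of all did. The F-test among ligands gave 0 (8 at an unadjusted p under 0.05), where 0% of all passed, and the 6 differences between ligands gave 0, where 0.042% of all did.

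With troglitazone 1 member passed, where 0.704% of all did: Cox6a1, the widespread isoform that muscle fibres largely replace by Cox6a2, at 0.88 ± 0.19, adjusted p = 0.0287. It had 2830.4, 2681.5 and 1747.1 in the 3 troglitazone arrays, against 1285, 1292 and 1246 in untreated obese rats. Troglitazone replicates 1 and 2 and pioglitazone replicate 1 (2542.7) were the highest of all muscle arrays, and the same 3 arrays were the highest in Cfd, the adipocyte transcript, at 3522.3, 2402.6 and 2372.9. Cfd had 557, 617 and 439 in untreated obese and 319, 633 and 1125 in lean muscle. The call was lost without any 1 of the untreated obese arrays (adjusted p = 0.121, 0.053 and 0.107 without replicates 1, 2 and 3) and without troglitazone replicate 1 (0.106) or 2 (0.179), and 2 members passed without troglitazone replicate 3. Fabp4, another adipocyte transcript, had 7466, 13467 and 27776 in ligand arrays, against 2537, 5139 and 2982 in untreated obese muscle, so that every ligand array lay above. The part of adipocyte RNA in the Cox6a1 difference was not tested. Cox8a, the other isoform known from tissues beside muscle, differed by 0.69 ± 0.19, adjusted p = 0.128 with troglitazone.

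**Figure D4:**
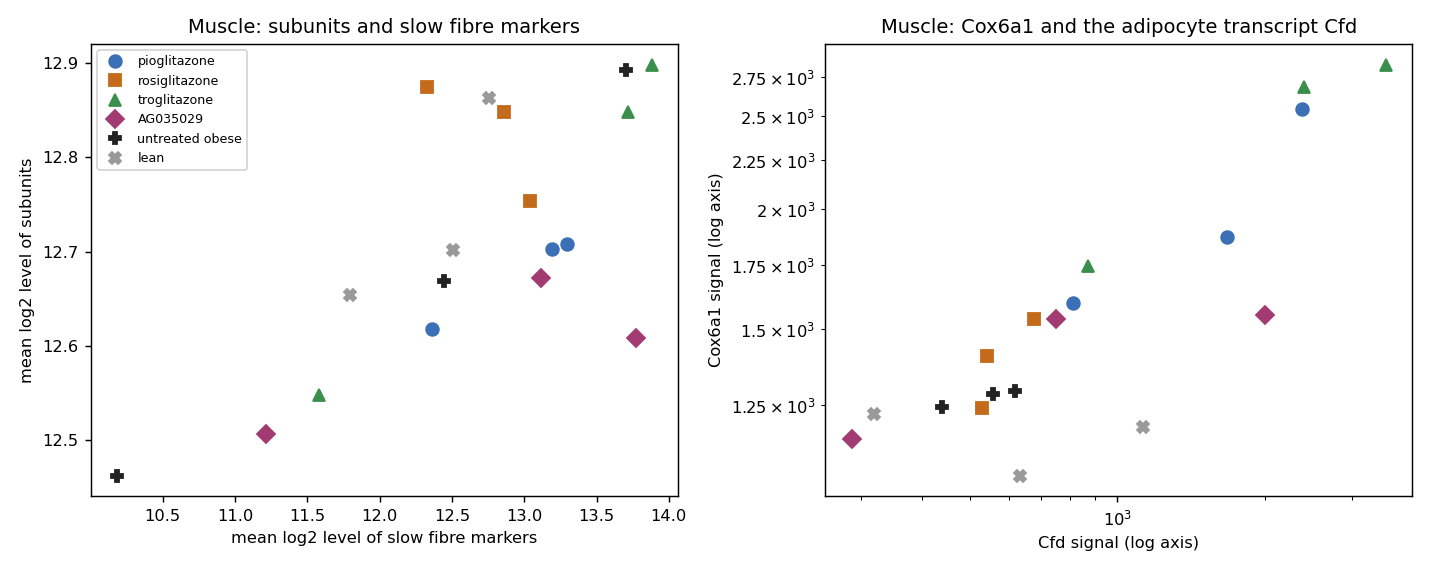
Muscle arrays, 18 points in each panel, coloured by group. The left panel sets the mean log2 level of the subunits against that of slow fibre markers, and the right panel the signal of Cox6a1 against that of Cfd (log axes). Within most groups the array with the fewest slow fibre transcripts has the fewest subunit transcripts, though not among the rosiglitazone arrays, and the 3 arrays highest in Cox6a1 are the 3 highest in Cfd.

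Within muscle groups, the members followed the slow fibre transcripts from array to array. Myh7, the slow myosin heavy chain, had 5648, 21967 and 37207 in ligand arrays, against 2280.2, 33285 and 14691 in untreated obese and 18559, 15112 and 10759.5 in lean rats, so the untreated obese arrays alone covered almost the whole range. Over 18 arrays the mean level of subunits and of the 8 slow fibre markers correlated at r = 0.71 (rho = 0.59, and r = 0.48 without the 2 arrays farthest from the median). Within groups r was 0.86 (rho = 0.81, and r = 0.83 without those 2 arrays). With the 9 fast fibre markers r within groups was 0.69 (rho = 0.70, and r = 0.72 without the 2 farthest arrays). Of 90 members 84 correlated above 0 with the slow fibre level within groups (93.3%), against 48.8% of all tested probe sets, with a median r of 0.60 against -0.01. All these points share the scale of their array, and 6 members rose with the slow fibre level past the threshold when it was fitted as a covariate, where 0.956% of all did. They were Sdhb (slope 0.26 ± 0.04 per log2 unit, adjusted p = 8.29e-04), Cox6b1, Atp5me, Cyc1, Ndufs1 and Ndufa7. The group comparisons in muscle carry this spread between arrays.

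Across lean tissues these genes were highest in muscle. The joint fit of 54 arrays tested 88 members, of which Cox6a2, Cox8b and Ndufa4l2 were too dim for the test in adipose tissue or liver alone and passed the filter through muscle. Muscle was higher than liver for 75 and lower for 3 (31.6% and 25.8% of all tested probe sets), with a median of 1.08, against 0.09 over all. Muscle was higher than adipose tissue for 78 and lower for 4 (25.3% and 33.9% of all), with a median of 1.49, against -0.15 over all. Adipose tissue was higher than liver for 10 and lower for 48 (33.8% and 22% of all), with a median of -0.46, against 0.18 over all. That last comparison depends on how arrays are scaled: adipose tissue was higher for 4 and lower for 55 members with median centring (median -0.75), and higher for 23 and lower for 35 with quantile normalization (median -0.12).

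The muscle isoforms were bright in muscle and dim elsewhere. Cox8b had 25944, 28084 and 22558 in lean muscle, against 6.2, 5.9 and 7.2 in lean adipose tissue and 15.1, 14.4 and 12.3 in lean liver. Cox6a2 had 23516, 21774 and 20855 in lean muscle, against 12, 11 and 13.1 in lean adipose tissue and 90.8, 114 and 106 in lean liver. No difference is given for these dim levels, of which Cox8b in both tissues and Cox6a2 in adipose tissue lay below 20.2, the 10th percentile of all signals. Their counterparts ran the other way: Cox6a1 was lower in muscle than in adipose tissue (-1.95 ± 0.16, adjusted p = 2.80e-14) and liver (-2.23 ± 0.16, adjusted p = 1.76e-16), and Cox8a likewise (-1.95 ± 0.17, adjusted p = 2.14e-13 and -1.06 ± 0.17, adjusted p = 6.68e-07). In adipose tissue Cox8b had 6.4, 18.1 and 286 in ligand arrays, against 3.6, 5.5 and 5.4 in untreated obese rats. Its highest arrays were pioglitazone replicate 2 (285.7), troglitazone replicate 3 (120.6) and rosiglitazone replicate 3 (91.1). Fitted without the filter, its difference was 1.11 (adjusted p = 0.222).

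**Figure D5:**
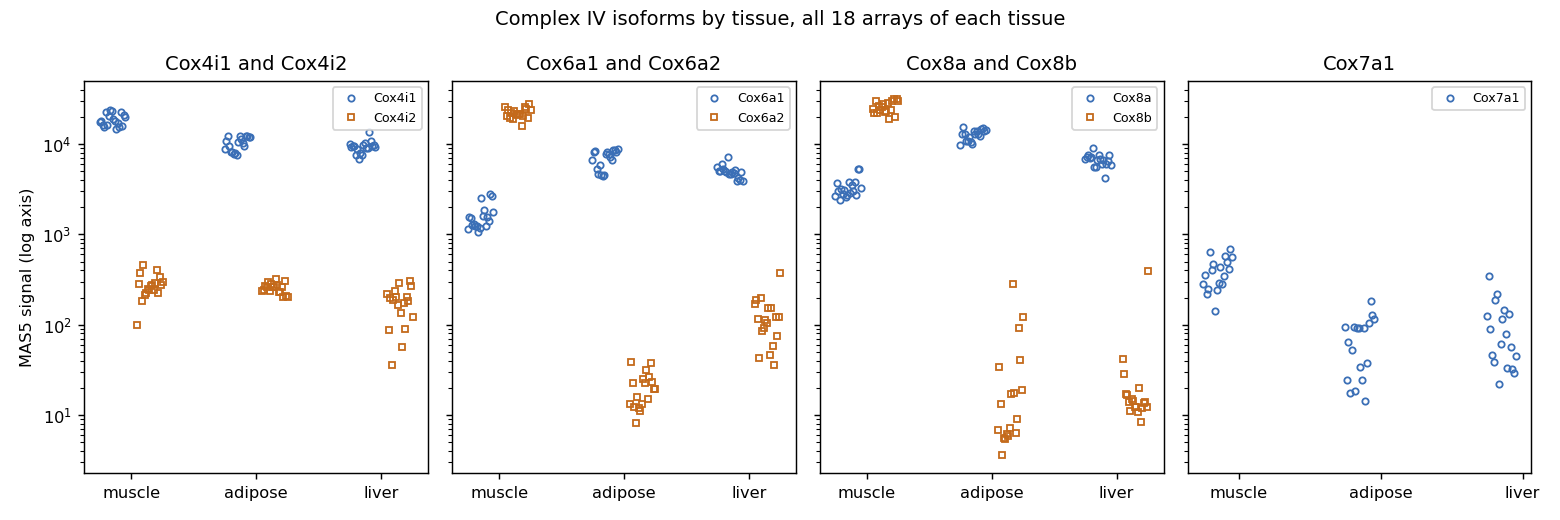
MAS5 signals (log axis) of complex IV isoforms on all 18 arrays of muscle, adipose tissue and liver. Each point is 1 array, and a gene is to be compared across tissues only, since probe sets differ in brightness. Cox6a2 and Cox8b stand far above the other tissues in muscle, and Cox6a1 and Cox8a stand lower in muscle than in adipose tissue.

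Among the other members the differences of lean muscle from lean liver reached 3.08 ± 0.41 for Ndufa5 and 2.20 ± 0.14 for Ndufab1, both of complex I. From lean adipose tissue they reached 2.65 ± 0.13 for Atp5f1c, the gamma subunit of ATP synthase, and 2.56 ± 0.20 for Ndufs1. Lean adipose tissue exceeded lean liver most for the assembly factor Sdhaf1 (1.11 ± 0.18, adjusted p = 6.51e-07) and for Cox8a (0.89 ± 0.17, adjusted p = 1.91e-05). Of the members tested in both tissues, it was lowest against liver for Cox7b (-1.72 ± 0.16, adjusted p = 9.19e-13) and Uqcrq (-1.66 ± 0.19, adjusted p = 2.49e-10).

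The ligand effect itself differed between tissues. An F-test in the joint fit compared the ligand mean minus untreated obese rats over the 3 tissues, and 53 of 88 members passed, where 6.03% of all tested probe sets did. All 53 were subunits: 24 of 36 of complex I, 5 of 5 of complex II, 8 of 8 of complex III, 4 of 13 of complex IV and 12 of 15 of complex V, with 0 of 9 assembly factors. Without untreated obese adipose replicate 2 the count was 33. The effect in adipose tissue exceeded that in liver for 58 members (3.14% of all) and that in muscle for 21 (1.59% of all), and it was below them for 0. Atp5f1a had an adipose effect of 0.59, a liver effect of -0.21 and a muscle effect of -0.08, and Ndufab1 had 0.78, -0.01 and -0.04 in the same order. The effect in liver was below that in muscle for 1 member, Cox6a1 (-0.67 ± 0.18, adjusted p = 0.0495), where 0.62% of all were. That call was lost in 48 of 66 other fits, among them those without the 4 or the 3 arrays named above. The count for adipose tissue over muscle was 8 without untreated obese muscle replicate 2 and 13 without replicate 3. For the effect of obesity 0 of 88 members differed between tissues (limma; 9 at an unadjusted p under 0.05), where 0.987% of all did.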

How the data were processed

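RNA from 3 tissues was measured on 54 Affymetrix arrays, 18 in each tissue. Values were linear intensities, which the authors deposited as MAS5 signals per the submitters' processing notes (version not given in the sources used here). Per the labels' protocols, each array held RNA pooled from 2 rats. No signal lay below 0, the trimmed mean was 500 on every array, no 2 arrays were identical, and no further scaling was applied. Array signals carry no read depth, so the number of arrays limits the precision. Of 15923 probe sets 57 controls were left out. The platform annotation gave 12783 of the rest 1 symbol, 312 several and 2771 none, and all 95 member probe sets were found by Entrez identifier in the RefSeq gene table, with 0 symbols updated.

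Signals were tested as log2(signal + 20), in probe sets whose mean over the arrays of a fit lay above the 40th percentile (9519 in each fit). Linear models with a trended eBayes step (limma 3.58.1, R 4.3.3) were fitted to the 18 arrays of a tissue and once to all 54. The fit of a tissue had 12 residual degrees of freedom. The fits of single tissues, not the joint fit, were tried on simulated data. The changes put in were larger than the ligand mean differences of members from untreated obese rats in adipose tissue. All adjusted p-values, by the Benjamini-Hochberg method over all probe sets of a fit, come from limma. Over all tested probe sets the median residual SD was 0.20 for adipose tissue, 0.32 for liver and 0.30 for muscle. Over members it was 0.17, 0.23 and 0.21. Replicate numbers did not pair arrays within a tissue: residuals of same-numbered arrays of a tissue correlated on average at 0.02 (adipose tissue), 0.00 (liver) and 0.01 (muscle). Residuals were not compared across tissues.

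Named members were those with the smallest adjusted p in each complex and direction and the largest difference, the tissue isoforms, subunits not called where most were, members called against the majority, the 10 smallest F-test p-values between tissues and the 6 largest lean differences each way. Members, lists, rules and tests were chosen with earlier results of these data known. The markers whose signals are printed, the genes named from pathway lists, and the repeats without the 4 arrays high in Acta1, without the 3 high in Acta1 and Ckm or with adipocyte or slow fibre levels as covariates were picked with the values in view. Other repeats left out each array, set the pseudocount to 5 or 80, dropped the filter or moved it to the 60th percentile, centred arrays on the median or normalized them by quantiles, weighted arrays, omitted the trend, added the replicate block, took only the arrays of a comparison, or called at an adjusted p of 0.01. Promoter windows were searched with Python 3.11.15.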

Additional observations from a re-analysis of the deposited data

Results flagged for a closer look

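The size of the ligand effect differed between tissues by the F-test of that difference (limma, joint fit) for 53 members. The 10 smallest adjusted p-values belonged to these subunits, each with its effect (ligand mean minus untreated obese rats) in adipose tissue, liver and muscle. Atp5f1a had 0.59, -0.21 and -0.08 (adjusted p = 1.53e-04). Ndufs7 had 0.59, -0.26 and -0.05 (adjusted p = 2.31e-04). Atp5f1d had 0.84, -0.17 and 0.04 (adjusted p = 2.33e-04). Ndufb1 had 0.65, -0.57 and 0.10 (adjusted p = 2.59e-04). Ndufv2 had 0.68, -0.30 and 0.00 (adjusted p = 2.91e-04). Ndufab1 had 0.78, -0.01 and -0.04 (adjusted p = 4.19e-04). In the fits of liver or muscle alone 0 members passed for this effect, so no direction is called there for any single gene. As described above, most of the liver differences lay below 0. Uqcrh had 0.61, -0.29 and 0.10 (adjusted p = 4.21e-04). Ndufs3 had 0.69, -0.15 and -0.07 (adjusted p = 4.35e-04). Ndufc1 had 0.70, -0.41 and -0.04 (adjusted p = 4.51e-04). Uqcr11 had 0.53, -0.36 and 0.01 (adjusted p = 4.86e-04). The effects rest on 12 ligand arrays and 3 untreated obese arrays in each tissue.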

How the results depend on the processing

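In adipose tissue the median over members for the ligand mean minus untreated obese rats was 0.50 as reported. It was 0.57 with median centring and 0.39 with quantile normalization. For rosiglitazone minus untreated obese rats it was 0.44, 0.51 and 0.31 in that order. Between the ligand mean and untreated obese rats 69 members were called. The count lay between 55 and 73 over the other alternatives (71 without the 4 arrays high in Acta1, 70 higher and 1 lower) and between 55 and 72 with 1 array left out. Against lean rats (74 called) it lay between 46 and 78, with 46 without the 3 arrays high in Acta1 and Ckm, and between 64 and 76 with 1 array left out. At an adjusted p of 0.01 the counts were 37 for pioglitazone, 11 for rosiglitazone, 22 for AG035029, 31 for the difference of the ligand effect between tissues, 10 for adipose tissue over muscle, 0 for liver against muscle, 1 for the ligand mean against lean liver and 0 for troglitazone in muscle. The 6 rosiglitazone and untreated obese arrays fitted alone gave 6. With 1 array left out the counts ranged over 55 to 67 (troglitazone), 43 to 63 (pioglitazone), 28 to 53 (AG035029) and 10 to 53 (rosiglitazone). The difference of the ligand effect between tissues lay between 33 and 58, adipose tissue over liver between 42 and 60, and adipose tissue over muscle between 8 and 28. That last count was 36 with array weights and 36 with quantile normalization. Untreated obese against lean adipose tissue gave 0 as reported, 2 with array weights, 3 with quantile normalization, and 0 to 2 with 1 array left out.

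The small counts were the least stable. The 1 member of the ligand effect in liver against muscle was lost (0) with array weights, without trend, with a pseudocount of 80, without the filter, with the replicate block and without the 4 or the 3 arrays, and the count lay between 0 and 1 with 1 array left out. The 2 members lower than lean liver became 1 without trend, in the fit of only the arrays compared, with a pseudocount of 80, with median centring, with the replicate block and without the liver array high in Acta1, and 0 to 3 with 1 array left out. Troglitazone in muscle (1 member) gave 0 with array weights, no trend and only the arrays compared, and 0 to 2 with 1 array left out. It also gave 0 with the adipocyte covariate. Of the markers in that covariate, Fabp4 lay above untreated obese muscle in all 12 ligand arrays and Cfd in 9 of 12. The covariate can therefore take up part of the treatment difference. The ligand mean against lean muscle (0 members) gave 2 with array weights, 2 with the filter at the 60th percentile, 1 with median centring, 1 with quantile normalization, 1 with the slow fibre covariate, and 0 to 1 with 1 array left out. With 1 array left out, 0 to 1 members passed in muscle for the F-test among ligands, rosiglitazone minus troglitazone and troglitazone minus AG035029, and 0 to 1 for the obesity effect in adipose tissue against liver. Ndufb4 and Cox5b turned direction between lean adipose tissue and liver with quantile normalization, to 0.32 (adjusted p = 0.0322) and 0.41 (adjusted p = 0.00859). The cause was not tested.

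Replicate numbers gave no pairing within a tissue. With the replicate block the adipose counts were 69 for the ligand mean against untreated obese rats and 73 against lean rats. Against untreated obese rats they were 67 (troglitazone), 60 (pioglitazone), 46 (AG035029) and 31 (rosiglitazone). The count for the difference of the ligand effect between tissues was 52. Fits with 2 arrays in a group assume that they vary like the others. Signals are relative within an array. Before centring, the median level of the adipose ligand groups differed from that of untreated obese rats by at most -0.09 (troglitazone). Median centring takes this out, so it raised the ligand groups relative to untreated obese rats. Dim members, such as the muscle isoforms in adipose tissue, were not measured well enough for the main tests. Fitted without the filter, the ligand mean minus lean adipose tissue was 0.46 for Cox6a2 (adjusted p = 0.0493, limma) and -0.86 for Cox6b2 (adjusted p = 0.0397). Against untreated obese rats neither passed (0.46, adjusted p = 0.072 and -0.29, adjusted p = 0.595). These values rest on dim signals.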

Other observations

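A further 9 probe sets carried a respiratory symbol beside another annotated symbol, and therefore fell outside the rule. They measured Atp5mc1, Atp5mc2, Cox7a2, Cox5a, Uqcrb, Ndufs5, Ndufa10 and, on 2 probe sets, Cycs, which encodes cytochrome c. The further symbols were like-named genes, pseudogenes or an unnamed locus, so their signals cannot be assigned to 1 gene. In adipose tissue 7 of the 9 rose in the ligand mean relative to untreated obese rats and 0 fell (limma), with differences between -0.31 and 0.82, where 9.01% of all tested probe sets rose and 11.6% fell. In liver their differences lay between -0.33 and 0.02, and in muscle between -0.02 and 0.17, and 0 of the 9 passed in either, where 0.494% of all did in liver and 0.242% in muscle. Between untreated obese and lean rats 0 of the 9 passed in any tissue (6.02%, 0.672% and 0.021% of all in adipose tissue, liver and muscle), with adipose differences between 0.01 and 0.46.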
